A study of Homo sapiens with 6 samples.

Results

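Genes that encode or build surface antigens targeted in brain tumors were followed in 4 cell lines of atypical teratoid rhabdoid tumor (AT/RT), an embryonal tumor of the young brain. They were chosen by name, as CD276, CD47, NCAM1, L1CAM, B4GALNT1, ST8SIA1, IL13RA2, GPC2, CLDN6 and PROM1, and each was found once, so 10 of the 36532 genes in the deposited transcript tables are described. The lines, namely CHLA 02 and CHLA 04 together with CHLA 05 and CHLA 06, came from ATCC, were not treated, and were all grown in DMEM:F12 with 20 ng/mL of EGF, 20 ng/mL of basic FGF and 2% B-27. None of the lines expresses SMARCB1, the subunit of a chromatin remodeling complex lost in AT/RT, and CHLA 06 is placed in another molecular group than the other lines. Total RNA was sequenced in 6 libraries, 1 each for CHLA 02 and CHLA 05 and 2 technical replicates each for CHLA 04 and CHLA 06.

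Each line was thus represented by 1 biological sample, no normal brain or other control was sequenced among these libraries, and no test between lines was possible. A difference is called here where the values of 2 lines, as log2(TPM + 1) averaged over technical replicates, differ by 2 or more, which is 4-fold, and counts are given beside the share of all genes at 1 TPM or more in a library that pass the same bound. TPM is scaled by transcript length and library size, so levels of different genes can be set side by side. In these bulk libraries fewer cells with an antigen and less RNA per cell cannot be told apart, and neither protein nor glycolipid at the cell surface was measured.

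Antibodies, antibody conjugates and engineered T cells against surface antigens need a molecule that is displayed on tumor cells and scarce on normal brain. Some antigens are proteins, such as immune ligands, adhesion molecules and receptors, and are read directly from their genes. The ganglioside GD2 is a sugar-bearing lipid with no gene of its own, so its RNA trace is that of the glycosyltransferases which build it.

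The libraries held 10265899 to 20520229 reads on transcripts, recovered from the TPM steps, so that for a transcript of 1000 bp a single read came to 0.117 to 0.236 TPM. RPM below is the recovered reads of a gene scaled to a library total of 1000000. Of the 5 immune cell markers (PTPRC, CD14, AIF1, CSF1R, CD3E), all were under 1 TPM in every library, AIF1 and CD3E were listed at 0 throughout, and the summed level ranged from 0.0685 to 0.465 TPM. Of 3 endothelial markers, PECAM1 and CDH5 were under 1 TPM in every library and VWF reached 3.70 TPM in CHLA 04. Of the neural markers listed, TUBB3 was at 205 to 455 TPM, VIM at 4629 to 19464 TPM and NES at 5.21 to 27.6 TPM. SOX2 was at 4.03 TPM in CHLA 05 and at most 0.470 TPM in the other libraries. The median difference of all genes was within 0.21 of 0 on the log2 scale in each pair of lines, and it was -0.21 for CHLA 06 against CHLA 04 and -0.19 for CHLA 06 against CHLA 05. Under median-of-ratios scaling these medians were 0.00 and -0.01.

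Across the 10 genes, 2 antigens were above 10 TPM in every line, namely CD276 and CD47. NCAM1, B4GALNT1, ST8SIA1, IL13RA2 and GPC2 were above 10 TPM in some lines only. L1CAM, CLDN6 and PROM1 stayed under 10 TPM in all of them. At the level of 10 TPM, CHLA 02 and CHLA 05 had 5 antigens each, CHLA 04 had 6 and CHLA 06 had 2, which makes 18 of 40 values.

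**Figure D1:**
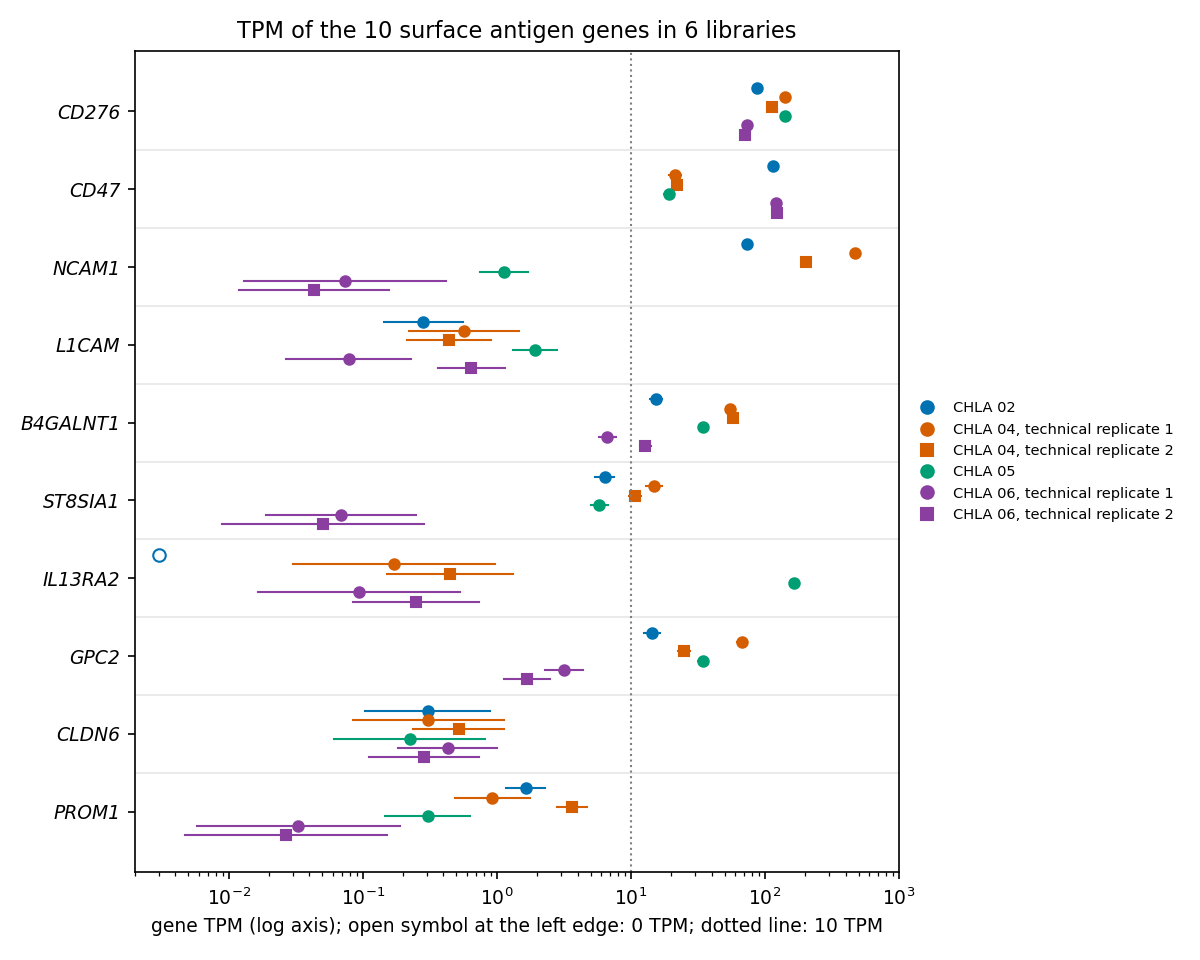
Gene TPM of the 10 antigen genes on a log axis, 1 symbol per library, colored by cell line, with Wilson 95% intervals from the recovered reads. CD276 and CD47 lie to the right of the dotted line at 10 TPM in all 6 libraries, IL13RA2 does so in CHLA 05 alone, and CLDN6 lies between 0.224 and 0.522 TPM throughout.

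Parts of the antigens that an antibody or a signal can reach are set by short coding exons which are spliced in or left out. In CD47 and NCAM1, annotated transcripts with and without 4 such exons differed in their share of reads between libraries. Reads were counted over whole transcripts, which also differ elsewhere, and not on the exons. The 4 exons are printed below from the GRCh38 genome, 5′ to 3′ on the strand of the gene. The exon is in capitals, with 10 intronic bases on either side in lower case. The CD47 exons lie on the minus strand at chr3:108050578-108050602 and chr3:108049619-108049651, and the NCAM1 exons on the plus strand at chr11:113221296-113221325 and chr11:113236301-113236315. The exons of 33, 30 and 15 bases are whole numbers of codons, and the exon of 25 bases is not.
CD47 25-base exon, cytoplasmic tail: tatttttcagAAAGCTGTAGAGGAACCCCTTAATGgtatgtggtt
CD47 33-base exon, cytoplasmic tail: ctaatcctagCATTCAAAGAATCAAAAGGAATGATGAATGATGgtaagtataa
NCAM1 30-base exon, within an immunoglobulin domain: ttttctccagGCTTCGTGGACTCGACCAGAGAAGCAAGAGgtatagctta
NCAM1 15-base exon, between fibronectin domains: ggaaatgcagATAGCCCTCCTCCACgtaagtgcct

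CD276, or B7-H3, is an immune ligand of the B7 family and a target of antibodies and engineered T cells in childhood brain tumors. Its locus is on the plus strand of chromosome 15 (73683966 to 73714518). Its level was 87.0 TPM in CHLA 02, 141 and 112 TPM in CHLA 04, 140 TPM in CHLA 05, and 73.0 and 70.8 TPM in CHLA 06, where pairs of values are technical replicates. CHLA 06 was lowest and CHLA 05 and CHLA 04 were highest, and the difference between the highest and the lowest line was 0.95 on the log2 scale, or 1.93-fold. CHLA 05 and CHLA 04 did not differ beyond the spread of the CHLA 04 replicates (126 ± 20.4 TPM, SD, n = 2). In each library CD276 stood between the 85.6th and the 93.0th percentile of the genes above 0 TPM. Human CD276 protein is made with 4 or with 2 immunoglobulin domains, and transcripts with the exons of all 4 took 91.2% to 94.5% of the reads on both kinds in the 6 libraries. Among these 3 transcripts, 1 is annotated with 388 residues, against 534 and 533 for the others, so the share is not one of protein forms.

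The other B7 genes were mostly scarce. Of 10 family members, 2 reached 10 TPM in a line, CD276 and NCR3LG1, the ligand of the natural killer receptor NKp30. NCR3LG1 was at 18.5 TPM in CHLA 02, 12.8 TPM in CHLA 04, 61.3 TPM in CHLA 05 and 24.5 TPM in CHLA 06 (means where there were 2 libraries). ICOSLG, the ligand of ICOS, was the other member besides NCR3LG1 past 4-fold between lines, with 0.432 TPM in CHLA 02 and 7.72 TPM in CHLA 05, and 2 gene identifiers carry its symbol. These 2 of 10 stand beside 20.4% of all genes tested. Of the 10, 5 were under 1 TPM in every library, and such genes are not among those tested. The share of the B7 family and that of all genes are therefore not like for like.

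CD47 marks cells as self to phagocytes through the receptor SIRPA on macrophages, and blocking antibodies aim at this contact. The gene is on chromosome 3, minus strand (108043298 to 108091025). It was at 115 TPM in CHLA 02, 21.3 and 22.2 TPM in CHLA 04, 19.1 TPM in CHLA 05, and 120 and 122 TPM in CHLA 06. The libraries fell into a high pair of lines, CHLA 02 and CHLA 06, and a low pair, CHLA 04 and CHLA 05, with no overlap. CHLA 06 was 2.60 above CHLA 05 and 2.43 above CHLA 04 on the log2 scale. In RPM, CHLA 02 was 6.02-fold above CHLA 05 (5.48 to 6.61, exact 95% interval of counting error). Within the pairs the lines did not stand apart, with a difference of 0.07 between CHLA 06 and CHLA 02 and of 0.17 between CHLA 04 and CHLA 05.

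Reads on CD47 were divided among 5 transcripts, and a retained-intron transcript of 6796 bases took 39.5% to 56.5% of them. The remaining reads fell mainly on 2 coding transcripts that differ in the 25-base and 33-base exons. With both in, the protein has a long cytoplasmic tail (323 residues in all), and with both out a shorter one (305 residues in all). These transcripts are annotated with 1285 and 5020 bases, so they also differ outside these exons. Reads on the exons or their junctions were not counted. The long form had 19.1% of the reads of these 2 transcripts in CHLA 02 (Wilson 95% interval 17.2 to 21.1), 24.2% (18.1 to 31.5) and 9.49% (6.90 to 12.9) in CHLA 04. It had 5.44% (3.38 to 8.66) in CHLA 05, and 25.4% (23.4 to 27.5) and 21.7% (20.1 to 23.5) in the replicates of CHLA 06. CHLA 05 was below every library of CHLA 02 and CHLA 06, but the technical replicates of CHLA 04 lay on either side of CHLA 02, so the spread between libraries of 1 line exceeded counting error. As shares of TPM, which correct for the shorter length of the long-tail transcript, the values were 47.9%, 55.5% and 29.0%, 18.4%, and 57.0% and 52.0% in the same order. How the mapping tool divided reads shared by several transcripts is not given in the sources used here.

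The partners of CD47 were read from a list of 4 genes, of which 1 passed 4-fold, against 20.4% of all genes tested. SIRPA itself was at 12.3 TPM in CHLA 02, 5.50 TPM in CHLA 04, 9.89 TPM in CHLA 05 and 25.1 TPM in CHLA 06, with a difference of 1.99 between the highest and the lowest line, just short of the bound. THBS1, thrombospondin 1, a secreted ligand of CD47, was at 53.8 TPM in CHLA 05 against 5.73 TPM in CHLA 04. QPCTL, the glutaminyl cyclase that modifies the end of CD47 bound by SIRPA, was at 11.3 to 15.6 TPM.

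NCAM1, or CD56, is an adhesion molecule of neurons and neuroendocrine cells and the main carrier of polysialic acid. Its locus is on the plus strand of chromosome 11 (112961247 to 113278436). It was at 73.9 TPM in CHLA 02, 469 and 201 TPM in CHLA 04, 1.14 TPM in CHLA 05, and 0.0735 and 0.0434 TPM in CHLA 06. The last 2 values rest on 1 and 2 reads, against 1309 reads in CHLA 02 and 3643 and 2969 reads in CHLA 04. The lines thus separated into CHLA 04, then CHLA 02, then CHLA 05 and CHLA 06, and the difference of 8.18 between CHLA 04 and CHLA 06 was the largest among the 10 genes. CHLA 02 was 59.7-fold above CHLA 05 in RPM (39.3 to 95.6). The difference of 2.04 between CHLA 04 and CHLA 02 was at the edge of the bound, and it was 1.43 without the first replicate of CHLA 04, 1.81 after quantile normalization, 1.91 under median-of-ratios scaling and 1.61 in RPM.

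NCAM1 protein is anchored either by a membrane-spanning segment or by a glycolipid. Of the reads on transcripts with either end, 93.5% (91.8 to 94.8) in CHLA 02 and 90.5% (89.3 to 91.6) and 90.8% (89.4 to 91.9) in CHLA 04 were on transcripts with the membrane-spanning end. The 30-base exon was in transcripts that took 75.7% (72.9 to 78.4) of the reads in CHLA 02 and 67.0% (64.8 to 69.1) and 72.3% (70.1 to 74.3) in CHLA 04, over 11 transcripts of 15 or more exons. The share was lower in the first CHLA 04 replicate than in the second, beyond counting error. For the 15-base exon the shares were 9.60% (7.95 to 11.5) in CHLA 02 and 25.4% (23.7 to 27.1) and 14.8% (13.4 to 16.4) in CHLA 04, over 18 transcripts that span it. Both CHLA 04 libraries were above CHLA 02, and they differed from each other by more than the lower of them differed from CHLA 02. As shares of TPM, which scale by transcript length, the values were 31.2% in CHLA 02 and 59.3% and 40.6% in CHLA 04. In the first CHLA 04 replicate, 87.6 and 54.0 of the 152 TPM with the exon were on transcripts of 686 and 1179 bases. These are annotated with 228 and 371 residues, so the TPM share does not show which full-length form was larger. For the 30-base exon the TPM shares were 66.2%, 56.3% and 63.2% in the same order. In CHLA 05, 0 of 19 reads were on transcripts with the 15-base exon (upper limit 16.8%), and CHLA 06 had too few reads for a share.

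**Figure D2:**
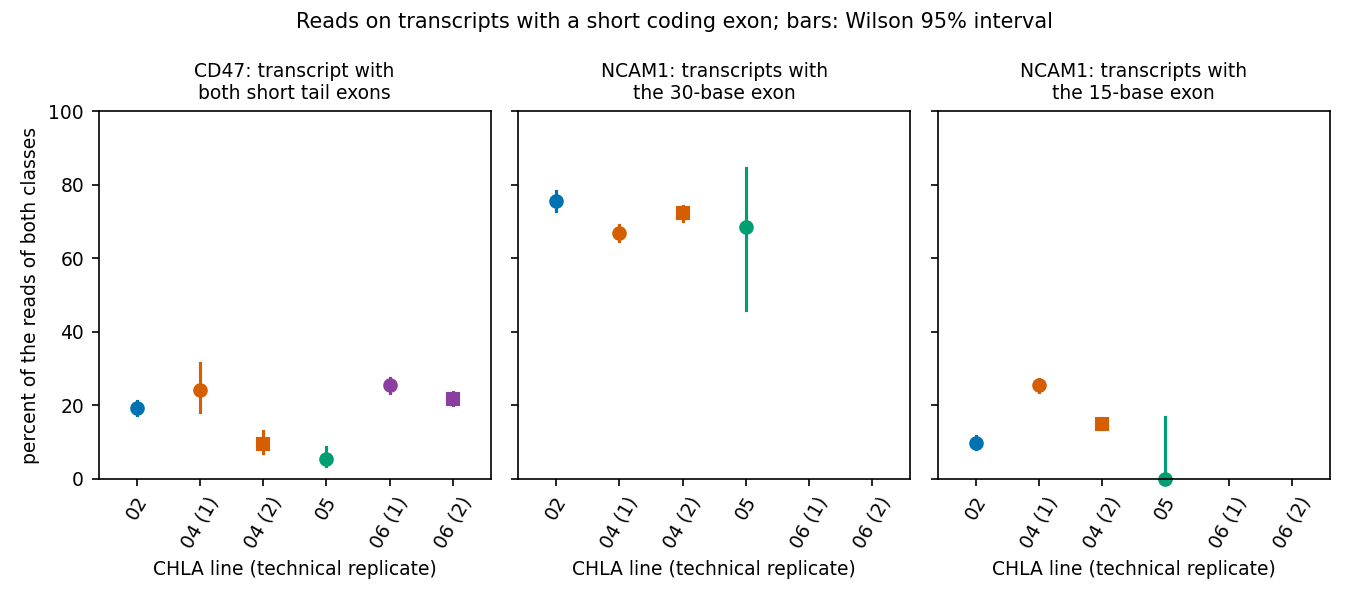
Percent of reads on transcripts with a short coding exon, among reads on transcripts with or without it, by library, with Wilson 95% intervals, and with libraries under 10 reads left out. CD47 transcripts with the 25-base and 33-base exons range from 5.44% in CHLA 05 to 25.4% in CHLA 06. NCAM1 transcripts with the 15-base exon reach 25.4% of reads in a replicate of CHLA 04. Their 59.3% of TPM there lies mainly on transcripts of 686 and 1179 bases.

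L1CAM, or CD171, is a neural adhesion molecule of another family and a target in neuroblastoma. The gene is on chromosome X, minus strand (153861514 to 153909223). It was at 0.283 TPM in CHLA 02, 0.572 and 0.440 TPM in CHLA 04, 1.93 TPM in CHLA 05, and 0.0783 and 0.646 TPM in CHLA 06, from 3 to 27 reads. CHLA 05 was highest, at 3.36-fold the RPM of CHLA 02 (1.49 to 8.57), and the other lines did not stand apart. Its exons share 100 bases with those of ARHGAP4 on the same strand, which was at 1.87 to 17.1 TPM.

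Of the 6 genes of the L1 and NCAM families, 4 reached 10 TPM in a line and 3 passed 4-fold, NCAM1, NRCAM and NCAM2, against 20.4% of all genes tested. NRCAM, a relative of L1CAM, was at 31.9 TPM in CHLA 02, 171 TPM in CHLA 04, 125 TPM in CHLA 05 and 9.87 TPM in CHLA 06. NCAM2, the paralog of NCAM1, was highest in CHLA 05 (19.7 TPM) and at 2.10 to 3.76 TPM in the other lines. NFASC, neurofascin, was at 26.6 to 37.2 TPM. CHLA 05, where NCAM1 was near 1 TPM, was also the line with the highest RNA of both polysialyltransferases, which attach polysialic acid to NCAM1. ST8SIA2 was at 2.21 TPM in CHLA 02, 7.75 and 14.4 TPM in CHLA 04, 48.5 TPM in CHLA 05, and 0.160 and 0 TPM in CHLA 06. ST8SIA4 was at 31.0 TPM in CHLA 05 and at or under 0.362 TPM in every other library.

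GD2 is built from GM3 in steps that need ST8SIA1, which makes GD3, and B4GALNT1, which turns GD3 into GD2. B4GALNT1 lies on the minus strand of chromosome 12 (57623410 to 57633355). It was at 15.4 TPM in CHLA 02, 55.2 and 58.2 TPM in CHLA 04, 34.5 TPM in CHLA 05, and 6.66 and 12.8 TPM in CHLA 06. CHLA 04 was highest and was 2.49 above CHLA 06, while CHLA 02 and CHLA 06 did not stand apart beyond the spread of the CHLA 06 replicates (9.74 ± 4.36 TPM, SD, n = 2). The reads lay mainly on transcripts annotated as retained introns, which took 82.0% to 90.5% of them, and protein-coding transcripts held 23.5% to 35.7% of the TPM. Exons of B4GALNT1 share 2136 bases with exons of SLC26A10 on the opposite strand, which was at 2.67 to 33.5 TPM, and whether strand was used in counting is not given in the sources used here, so reads of the 2 genes may not be separated there.

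ST8SIA1 lies on the minus strand of the same chromosome (22063773 to 22437041). It was at 6.36 TPM in CHLA 02, 14.8 and 10.8 TPM in CHLA 04, 5.79 TPM in CHLA 05, and 0.0688 and 0.0502 TPM in CHLA 06. The CHLA 06 values rest on 2 reads and 1 read, against 156 to 357 reads in the other libraries. CHLA 02 was 89.6-fold (24.4 to 746) and 196-fold (34.7 to 7788) above the CHLA 06 replicates in RPM. CHLA 04 was highest, and CHLA 02 and CHLA 05 did not stand apart. The log2 differences of CHLA 06 from CHLA 02 (-2.80) and CHLA 05 (-2.68) fell short of the bound after quantile normalization (-1.83 and -1.75) and for the most abundant transcript alone (-1.44 and -1.79), and the latter also with a pseudocount of 2 (-1.92). The gene totals of both enzymes of GD2 synthesis were thus well above 3 reads in CHLA 02, CHLA 04 and CHLA 05, and ST8SIA1 was below 3 reads in CHLA 06. For B4GALNT1, the longest coding transcript (533 residues) had 2 reads in CHLA 02, 5 and 7 in CHLA 04 and 3 in CHLA 05. The next longest (478 residues) had 6, then 13 and 49, then 15 reads. The CHLA 06 replicates held 4 and 3 reads of the longest form, and 4 and 12 of the next longest. These few reads do not place CHLA 06 below CHLA 02 for B4GALNT1.

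Of the 21 genes of ganglioside synthesis and breakdown, 15 reached 10 TPM in a line and 4 passed 4-fold between lines, among them ST8SIA1, B4GALNT1 and B4GALT6, against 20.4% of all genes tested. B4GALT6, a lactosylceramide synthase, was at 16.8 TPM in CHLA 02, 3.08 TPM in CHLA 04, 2.20 TPM in CHLA 05 and 22.5 TPM in CHLA 06, so the lines highest in B4GALT6 were not those highest in ST8SIA1 and B4GALNT1. ST3GAL5, which makes GM3, was at 3.44 to 12.3 TPM, and both B4GALT6 and ST3GAL5 were named after their values were seen. Among the most abundant genes of the list, B4GALT5 was at 41.1 to 102 TPM, HEXA at 60.8 to 83.0 TPM, GLB1 at 43.8 to 78.8 TPM, NEU1 at 27.9 to 78.2 TPM and GM2A at 33.3 to 63.3 TPM.

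IL13RA2 is a receptor that binds the cytokine IL-13 without the signaling chain of the usual receptor, and it has been targeted in glioma. Its locus is on the minus strand of chromosome X (115003975 to 115019977). It was listed at 0 TPM in CHLA 02, and was at 0.172 and 0.444 TPM in CHLA 04, 165 TPM in CHLA 05, and 0.0942 and 0.249 TPM in CHLA 06. CHLA 05 had 1418 reads (Wilson 95% interval 157 to 174 TPM), and the other 5 libraries had 0 to 3 reads each. Against CHLA 02, CHLA 05 was at least 471-fold higher in RPM, with the floor of 3 reads per library in place of 0. The ratio was 501 (171 to 2431) against the second CHLA 04 replicate and 592 (202 to 2873) against the second CHLA 06 replicate, each with 3 reads. The 0 to 3 reads in CHLA 02, CHLA 04 and CHLA 06 do not order those lines. Of the reads in CHLA 05, 92.5% were on protein-coding transcripts.

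The receptor that signals for IL-13 is formed by IL13RA1 and IL4R, and both had another order of lines than IL13RA2. IL13RA1 was at 161 TPM in CHLA 02, 5.61 and 7.54 TPM in CHLA 04, 59.9 TPM in CHLA 05, and 252 and 245 TPM in CHLA 06. IL4R was at 15.6 TPM in CHLA 02, 0.611 and 2.21 TPM in CHLA 04, 4.48 TPM in CHLA 05, and 21.5 and 27.4 TPM in CHLA 06. Both were highest in CHLA 06, next in CHLA 02 and lowest in CHLA 04. Of the 6 genes of IL-13 and IL-4 ligands and receptors, 3 passed 4-fold (IL13RA2, IL13RA1 and IL4R), against 20.4% of all genes tested. Of the ligands, IL13 was at most 1.58 TPM and IL4 was listed at 0 in every library.

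GPC2, glypican 2, is a heparan sulfate proteoglycan held by a glycolipid anchor on developing neurons and a target in neuroblastoma. The gene is on chromosome 7, minus strand (100169606 to 100177372). It was at 14.3 TPM in CHLA 02, 66.9 and 25.0 TPM in CHLA 04, 34.3 TPM in CHLA 05, and 3.17 and 1.68 TPM in CHLA 06. CHLA 06 was below all other libraries, at 3.65 below CHLA 04, 3.40 below CHLA 05 and 2.20 below CHLA 02 on the log2 scale. The last of these fell short of the bound with a pseudocount of 2 (-1.90), after quantile normalization (-1.67), with the higher technical replicate (-1.88) and without the second CHLA 06 replicate (-1.88). CHLA 05 lay between the replicates of CHLA 04, so these lines cannot be ordered. CHLA 05 was 2.29-fold above CHLA 02 in RPM (1.95 to 2.71), with 1 library each and an interval of counting error only. The technical replicates of CHLA 04 differed by more, 3.18-fold, so these lines are not shown to stand apart.

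Other glypicans were lower in CHLA 06 as well. Of 6 glypicans, 4 passed 4-fold, GPC2, GPC3, GPC4 and GPC6, against 20.4% of all genes tested, and each was lowest in CHLA 06. GPC3, an oncofetal antigen of liver cancer, was at 478 TPM in CHLA 02, 294 TPM in CHLA 04, 28.6 TPM in CHLA 05 and 1.77 TPM in CHLA 06. GPC4 was highest in CHLA 04 (74.2 TPM) and GPC6 in CHLA 05 (35.9 TPM), against 0.210 and 0.0190 TPM in CHLA 06. GPC1 was at 19.2 to 56.5 TPM and did not pass the bound.

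**Figure D3:**
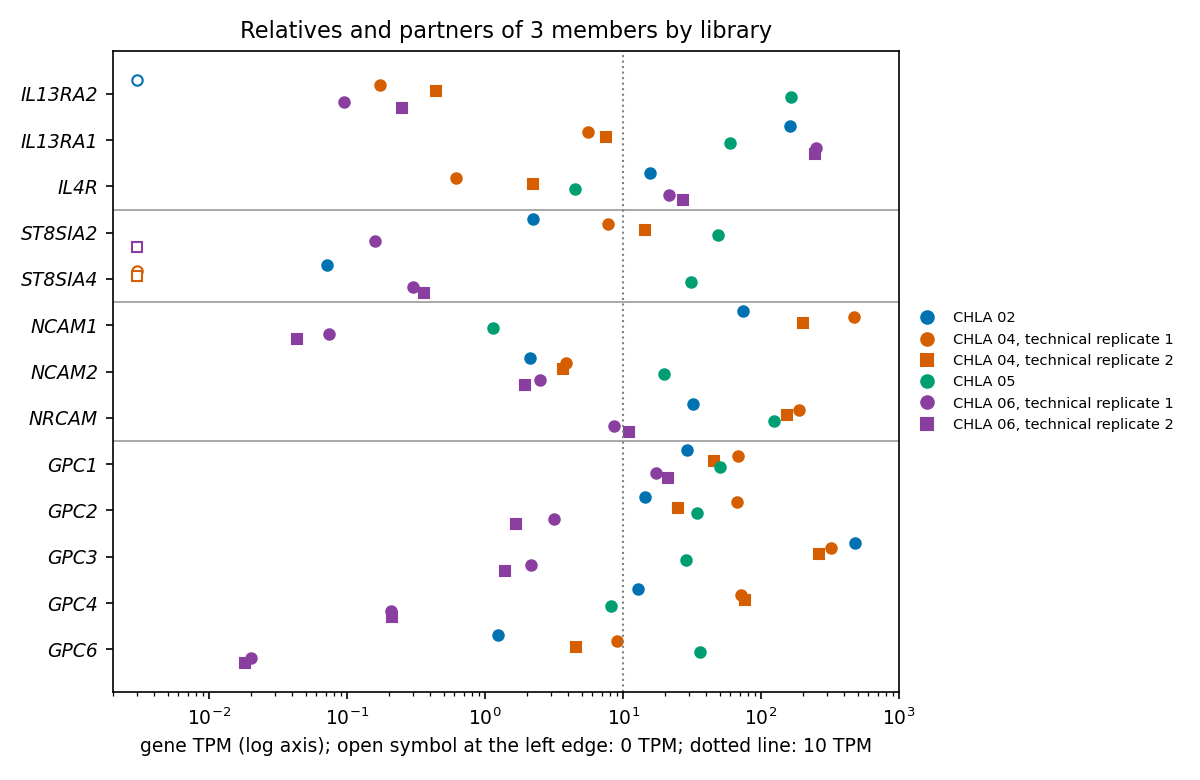
Gene TPM on a log axis, 1 symbol per library, for IL13RA2, NCAM1 and GPC2 with relatives and partners, in 4 blocks (interleukin receptors, polysialyltransferases, NCAM and L1 relatives, glypicans). The polysialyltransferases ST8SIA2 and ST8SIA4 are highest in CHLA 05, where NCAM1 is at 1.14 TPM, and 4 of the 5 glypicans shown are under 10 TPM in CHLA 06.

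CLDN6, claudin 6, is a tight junction protein of embryonic epithelia. Its locus is on the minus strand of chromosome 16 (3014712 to 3020071). It was at 0.304 TPM in CHLA 02, 0.309 and 0.522 TPM in CHLA 04, 0.224 TPM in CHLA 05, and 0.432 and 0.287 TPM in CHLA 06. These values rest on 2 to 6 reads each, no 2 lines stood apart, and the highest upper bound of an interval was 1.14 TPM. Exons of CLDN6 share 40 bases with TNFRSF12A on the opposite strand, which was at 8.32 to 137 TPM. Of 23 claudins, CLDN12 and CLDN15 reached 10 TPM in a line, with 26.2 to 41.1 TPM for CLDN12 and 10.7 TPM in CHLA 06 to 120 TPM in CHLA 04 for CLDN15. CLDN15 and 3 low claudins (CLDN1, CLDN4 and CLDN5, at most 6.27 TPM) passed 4-fold, against 20.4% of all genes tested. Of the 23 claudins, 13 were under 1 TPM in every library, and such genes are not among those tested. The share of claudins and that of all genes are therefore not like for like.

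PROM1, or CD133, is a membrane protein of stem cell protrusions that has been used to sort tumor cells. The gene is on chromosome 4, minus strand (15963076 to 16084378). It was at 1.64 TPM in CHLA 02, 0.925 and 3.64 TPM in CHLA 04, 0.304 TPM in CHLA 05, and 0.0331 and 0.0269 TPM in CHLA 06. The reads were 34, then 9 and 60, then 7, then 1 and 1. CHLA 02 was 39.1-fold (6.55 to 1587) and 42.7-fold (7.16 to 1736) above the CHLA 06 replicates in RPM. It was 4.87-fold above CHLA 05 (2.13 to 13.0), and the replicates of CHLA 04 lay on either side of CHLA 02. The first CHLA 04 replicate was at 0.254 of the second, and the intervals leave out such spread between libraries. PROM2, its paralog, was under 4 TPM in every library, with 0.237 and 0.210 TPM in CHLA 06.

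Of the 10 genes, 6 differed by 4-fold or more between their highest and lowest line, where 20.4% of the 16343 genes at 1 TPM or more in a library did. Their differences on the log2 scale were 8.18 for NCAM1, 7.38 for IL13RA2, 3.69 for ST8SIA1, 3.65 for GPC2, 2.60 for CD47 and 2.49 for B4GALNT1. CD276 (0.95), L1CAM (1.19), PROM1 (1.54) and CLDN6 (0.21) did not pass. The median of the 10 genes was 2.54, against 1.0 over all genes tested. CLDN6 is not among the genes tested, since it was under 1 TPM in every library, and the pseudocount of 1 keeps the differences of L1CAM and PROM1 small. It also holds down those of genes that fall near 0. With a pseudocount of 0.1, CHLA 06 against CHLA 04 came to -6.32 for ST8SIA1 and -10.92 for NCAM1, but to -4.09 for GPC2.

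**Figure D4:**
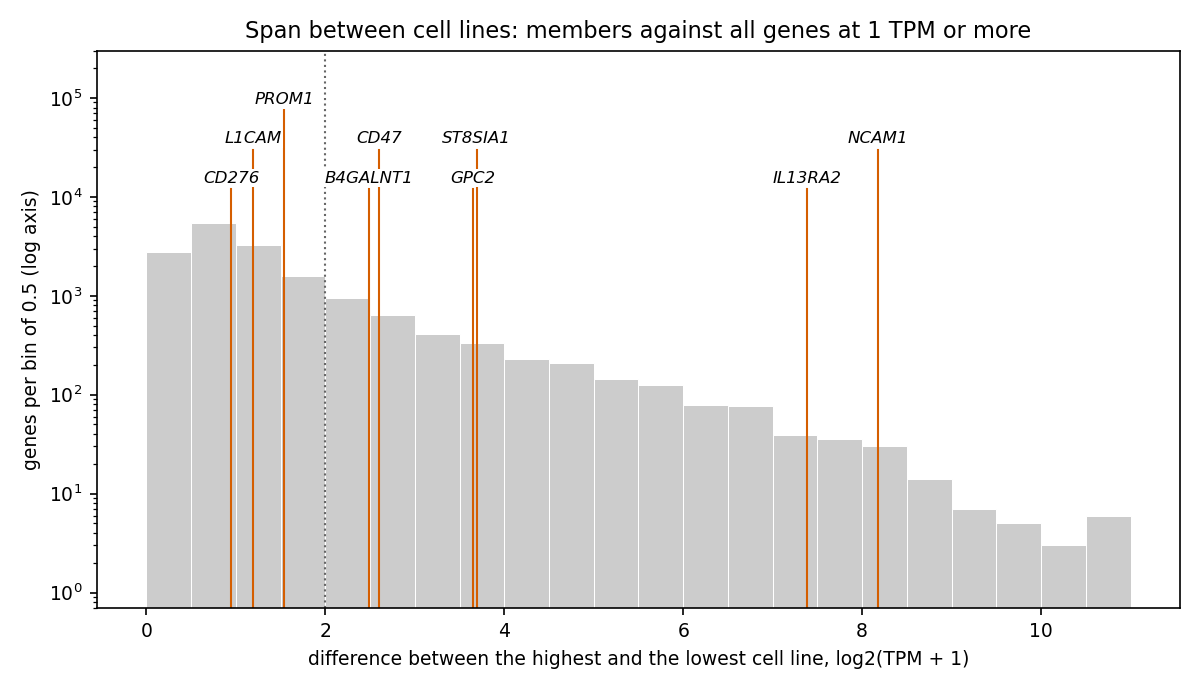
Number of genes, on a log axis, by the difference between the highest and the lowest cell line in log2(TPM + 1), for the 16343 genes at 1 TPM or more in a library, with 9 of the 10 antigen genes as vertical lines. IL13RA2 and NCAM1 stand in the far tail, at 7.38 and 8.18, and CD276 lies at 0.95, left of the dotted line at 4-fold.

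By pairs of lines, the count of antigen genes past 4-fold was highest for CHLA 06 against CHLA 04. There 5 of 10 passed, with CD47 higher in CHLA 06 and B4GALNT1, ST8SIA1, NCAM1 and GPC2 lower, where 14.0% of all genes passed. For CHLA 06 against CHLA 05, 4 passed (CD47 higher, and IL13RA2, ST8SIA1 and GPC2 lower), against 13.2% of all genes. For CHLA 06 against CHLA 02, 3 passed, all lower in CHLA 06 (ST8SIA1, NCAM1 and GPC2), against 4.10%. CD276 passed in none of the 6 pairs.

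The other 3 pairs are among lines placed in 1 molecular group. For CHLA 05 against CHLA 02, 3 passed (IL13RA2 higher, and NCAM1 and CD47 lower), against 8.72% of all genes. For CHLA 05 against CHLA 04, 2 passed (IL13RA2 higher and NCAM1 lower), against 6.87%. For CHLA 04 against CHLA 02, 2 passed (NCAM1 higher and CD47 lower), against 5.70%, and without the first replicate of CHLA 04 only CD47 did. Lines of 1 group thus differed in IL13RA2, NCAM1 and CD47.

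The technical replicates give the one measure of error between libraries of a line. In CHLA 04, NCAM1, GPC2 and PROM1 differed by 2-fold or more in log2(TPM + 1), where 6.52% of all genes did. NCAM1 was 2.08-fold (1.98 to 2.18) and GPC2 3.18-fold (2.77 to 3.65) higher in the first replicate in RPM, and PROM1 was at 0.254 (0.111 to 0.514) of the second. In CHLA 06 none of the 10 genes passed 2-fold on that scale, where 1.60% of all genes did, and B4GALNT1 came nearest, at 0.523 (0.437 to 0.624) in RPM. These intervals cover counting error only and leave out 1, so counting error is smaller than these differences. CD47 differed by less than counting error in both lines, at 0.899 (0.789 to 1.02) in CHLA 04 and 0.987 (0.943 to 1.03) in CHLA 06.

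The first CHLA 04 replicate was also the library with the fewest reads, at 10265899 against 17360741 in the second. It had 9.58% of its reads on retained-intron transcripts against 7.99%, and 9.64% on transcripts under 1000 bp against 8.41%. The part of these differences in the values of NCAM1, GPC2 and PROM1 was not tested.

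**Figure D5:**
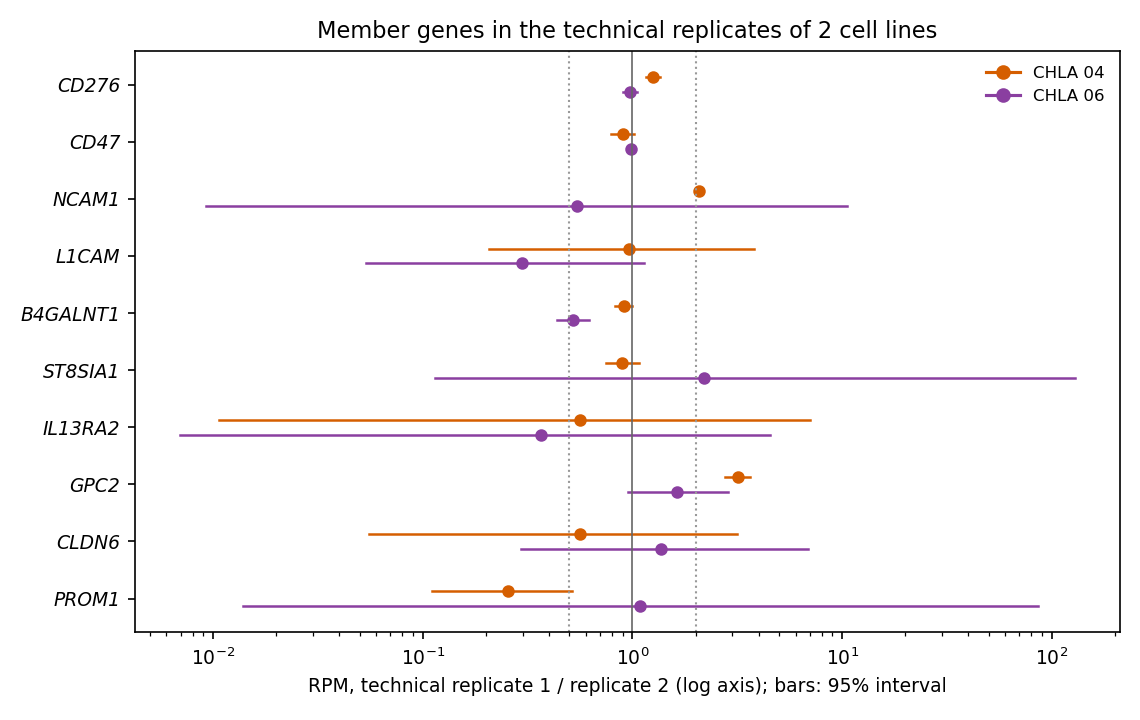
Ratio of RPM between technical replicate 1 and replicate 2 on a log axis, for the 10 antigen genes in CHLA 04 and CHLA 06, with exact 95% intervals of counting error and dotted lines at 2-fold. NCAM1 (2.08) and GPC2 (3.18) lie above 2-fold in CHLA 04, and genes with few reads have intervals that span 1.

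For each of the 6 genes past 4-fold, the genes with the most similar profile over the 6 libraries were found among 14804 genes, by the root mean square distance of log2(TPM + 1) after centering. For IL13RA2 they were MT3, a brain metallothionein (distance 0.30), and FSTL5 (0.36), at 189 and 127 TPM in CHLA 05 and under 1 TPM elsewhere. For NCAM1 they were CASQ1 (0.54), a calcium store protein of muscle, and SFRP1 (0.55), a secreted WNT antagonist. For CD47 they were HEYL (0.08), a target of Notch signaling, and MROH7-TTC4 (0.10), both at far lower levels, with at most 4.66 TPM for HEYL and 5.57 TPM for MROH7-TTC4. HEYL was listed at 0 in CHLA 04 and CHLA 05, so its distance there is set by the pseudocount of 1. MROH7-TTC4 was at 0.133 to 0.309 TPM there, near the same floor. For B4GALNT1 they were C1orf233 and FLT4 (0.11 each), for ST8SIA1 LIMA1 (0.13) and AC016747.3 (0.15), and for GPC2 PHF21B (0.19) and DDR1 (0.21). LIMA1 was at 328 TPM in CHLA 02 and at 53.6 and 41.6 TPM in CHLA 06. ST8SIA1 was at 6.36 TPM and at 0.0688 and 0.0502 TPM. The pseudocount holds down the drop of ST8SIA1, so the small distance does not mean a like fold. The distances are descriptions over 6 libraries of 4 lines, and small distances are easier to reach for genes with small differences.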

How the data were processed

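RNA of 4 AT/RT cell lines was measured in 6 libraries. Stranded total RNA libraries were sequenced as 125 bp paired ends, CASAVA 1.8.2, FastQC and Trimmomatic are named in the submitters' processing notes, and reads were mapped to GRCh38 with the annotation of Ensembl release 82 in the CLCbio Genomics Workbench under default parameters. The authors deposited TPM per transcript, and TPM per LTR element from a separate mapping with its own scale. Programs' other versions are not given in the sources used here.

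Gene TPM was the sum over transcripts of a gene identifier. After multiplication by transcript length, TPM values are steps of 1 read, which gave the reads behind each value (at least 99.24% of values whole within 0.02). The recovery was tested on simulated data. Intervals are Wilson or exact conditional binomial at 95% and cover counting error only. Line values are means of log2(TPM + 1), and a call is 2 or more on that scale. Background shares cover genes at 1 TPM or more in a library, while counts in a list also include genes below that level. Transcript types came from GENCODE release 44. Technical replicates were kept apart in all values by library, and differences between cultures were not measured. Gene lists were matched by symbol, or by Ensembl identifier where the symbol had changed (VSIR).

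The 10 genes and the lists were chosen with earlier results of these data known. Genes were named by a rule: the 10 genes, up to 6 genes of each list at 10 TPM or past 4-fold by highest level, and the 2 nearest profiles of each gene past 4-fold. Alternatives were pseudocounts of 0.1 and 2, quantile normalization of log2(TPM + 2), median-of-ratios scaling, the most abundant transcript, protein-coding transcripts, the higher technical replicate, leaving out each technical replicate, a 2-fold bound, no filter, and, chosen after the data were seen, RPM from recovered reads. Python 3.11.15, numpy 2.4.6, pandas 2.3.3, scipy 1.17.1 and matplotlib 3.10.9 were used. Protein sequences were not used here. One gene of the ganglioside list is not reported here.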

Additional observations from a re-analysis of the deposited data

How the results depend on the processing

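Of the 19 differences past 4-fold over the 6 pairs of lines, none changed direction under any alternative run. A pseudocount of 0.1 lost 0 and added 7, among them PROM1 in 4 pairs. It gave 5 antigen genes instead of 3 for CHLA 05 against CHLA 02, while the share of all genes rose from 8.72% to 15.6%. A pseudocount of 2 lost GPC2 (CHLA 06 against CHLA 02) and ST8SIA1 (CHLA 06 against CHLA 05), the most abundant transcript lost ST8SIA1 in 2 pairs, the higher technical replicate lost GPC2 (CHLA 06 against CHLA 02) and added 2, and protein-coding transcripts lost 0 and added 1. Quantile normalization lost 4 (NCAM1, ST8SIA1 in 2 pairs, GPC2). It gave 1 antigen gene for CHLA 04 against CHLA 02 and 1 for CHLA 06 against CHLA 02, where 4.22% and 2.91% of all genes passed. Median-of-ratios scaling and RPM each gave 1 for CHLA 04 against CHLA 02, as NCAM1 came to 1.91 and 1.61, where 5.63% and 6.08% of all genes passed. With a 2-fold bound the counts were 4 for CHLA 04 against CHLA 02, 7 for CHLA 05 against CHLA 02, 4 for CHLA 05 against CHLA 04 and 7 for CHLA 06 against CHLA 05, where 20.9%, 24.4%, 20.9% and 30.8% of all genes passed. Leaving out each technical replicate gave 1 to 3 for CHLA 04 against CHLA 02, 2 to 3 for CHLA 06 against CHLA 02, 5 to 6 for CHLA 06 against CHLA 04, 4 to 5 for CHLA 06 against CHLA 05 and 6 to 7 between highest and lowest line, where for the 4 pairs 5.72% to 6.42%, 3.99% to 4.35%, 13.8% to 15.7% and 12.9% to 13.8% of all genes passed, and at least 20.3% between highest and lowest line. GPC2 for CHLA 06 against CHLA 02 was lost without the second CHLA 06 replicate (-1.88). The count of values at 10 TPM or more was 18, and it was lowest, at 14, with the most abundant transcript. At 10 RPM or more, a scale without correction for length, the count was 20. The cause was not tested. No paired analysis was possible because the replicates are technical, each line has 1 biological sample and no test between lines was made.

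Values at 3 reads or fewer are at the limit of these libraries, so lower levels could not be ordered. These values are IL13RA2 outside CHLA 05, NCAM1, ST8SIA1 and PROM1 in CHLA 06, L1CAM in the first CHLA 06 replicate and CLDN6 in 3 of 6 libraries. RNA levels do not give antigen density at the surface.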

Other observations

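Other genes whose products have been targeted on tumor cells were read from a list of 15 genes. In this list 13 reached 10 TPM in a line and 10 passed 4-fold between lines, against 20.4% of all genes tested, with 7 at 10 TPM or more in CHLA 06 and 12 in CHLA 05. DLL3, a Notch ligand targeted in small cell lung cancer, was at 172 TPM in CHLA 02, 761 and 290 TPM in CHLA 04, 747 TPM in CHLA 05, and 0.229 and 0.707 TPM in CHLA 06. TFRC, the transferrin receptor, was at 525 TPM in CHLA 02, 1442 and 1543 TPM in CHLA 04, 1348 TPM in CHLA 05, and 38.4 and 32.2 TPM in CHLA 06. Both were lowest in CHLA 06, as were NCAM1, ST8SIA1 and GPC2. EGFR had the opposite end lowest, with 10.1 and 13.8 TPM in CHLA 04 against 199 TPM in CHLA 02, 209 TPM in CHLA 05 and 299 and 260 TPM in CHLA 06. TNFRSF10B, a death receptor, was at 98.6 to 239 TPM over the line means and CD99 at 173 to 236 TPM, and neither passed 4-fold.

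LTR elements within the spans of the antigen genes were measured in the separate mapping, on its own scale. NCAM1 holds 31 elements, of which 6 had reads, with 22 reads in CHLA 02, 53 and 49 reads in CHLA 04, and 0 in both other lines. ST8SIA1 holds 120, of which 28 had reads, with 26 reads in CHLA 02, 23 and 50 reads in CHLA 04, 19 reads in CHLA 05, and 1 and 0 reads in CHLA 06. The 9 elements in CD276 and the 4 in CD47 had 0 reads in all 6 libraries. The elements with reads lie within transcribed genes, and reads from introns of the host RNA and from RNA of the element itself cannot be told apart in these files.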
